A study of Mus musculus with 31 samples.

Results

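The genes described here are 10 mouse genes of heart muscle, measured in RNA from whole lungs: the natriuretic peptide genes Nppa and Nppb, and the muscle genes Myh6, Myl7, Myl4, Actc1, Tnnt2, Tnni3, Sln and Mybphl. They were chosen by name, and a probe counted as a member's when its gene name, or the current symbol of its RefSeq accession, was 1 of these 10. Of the 29440 genes and unnamed transcripts tested in the series, 10 are members, measured by 11 probes, and all 10 lay well enough above background to be tested.

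Female C57BL/6 mice aged 6 weeks were anaesthetised with xylazine and ketamine and received 1 tail vein injection each. The injected volume was 200 µl. It held oleic acid, at a dose of 1.2 µl per g of body weight, for 18 mice and physiological serum, called saline below, for 13 mice. Lungs were taken 1, 1.5, 3, 4, 18 and 24 h later, which gives 12 groups. Oleic acid groups held 3 mice, and saline groups 2 except for the 3 mice of 1 h. Each lung was hybridised to its own Agilent array with a single dye. Intravenous oleic acid is a model of acute lung injury, and the series followed the lung transcriptome over time. Because its spike-in slope was 1.66, the array of replicate 3 of oleic acid at 1.5 h was left out, as was replicate 2 at 3 h, with a slope of 0.751. The 29 arrays used hold 16 oleic acid mice and 13 saline mice, with 2 oleic acid mice each at 1.5 and 3 h and 3 at each other time. The labels do not say how much of the large vessels stayed on the dissected lung.

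In the mouse the pulmonary veins are wrapped in a sleeve of striated muscle that is continuous with the left atrium and carries atrial proteins, so lung tissue is known to hold some cardiac muscle. The atrial sarcomere uses its own set of light chains (Myl7 and Myl4) together with the alpha myosin heavy chain Myh6, cardiac alpha actin Actc1 and the cardiac troponins. Nppa and Nppb encode the precursors of atrial and brain natriuretic peptide, hormones that heart muscle releases when it is stretched and that lower blood volume and pressure through guanylyl cyclase receptors. In bulk tissue, fewer cells of a type and less RNA per cell cannot be told apart.

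Nppb and Nppa lie next to each other on mouse chromosome 4, at chr4:147985786-147987205 and chr4:148000722-148002074 (RefSeq, GRCm38.p6), with 13516 bases between them. The 250 bases before the annotated start are shown for Nppa, whose level differed most between mice together with that of Nppb, and for Myl7 and Mybphl, the pair of members that moved most closely together. Each is written 5′ to 3′ on the strand of its gene, from RefSeq (GRCm38.p6). Capitals mark matches, on either strand, to any of 7 short motifs. The first is TATAAA, the core of the box that positions the start of transcription. AGATAA is read by GATA factors and TNAAGTG by homeobox factors such as Nkx2-5. AGGTGT is known as the motif of T-box factors, and CATTCC as that of TEAD factors. The others are the CArG box of serum response factor and the MEF2 box.
Nppa (chr4:148000472-148000721, plus strand): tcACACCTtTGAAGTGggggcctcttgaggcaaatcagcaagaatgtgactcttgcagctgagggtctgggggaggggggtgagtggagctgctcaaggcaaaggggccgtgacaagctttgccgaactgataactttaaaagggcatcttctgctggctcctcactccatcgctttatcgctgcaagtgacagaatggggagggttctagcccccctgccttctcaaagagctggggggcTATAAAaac
Myl7 (chr11:5898783-5899032, minus strand): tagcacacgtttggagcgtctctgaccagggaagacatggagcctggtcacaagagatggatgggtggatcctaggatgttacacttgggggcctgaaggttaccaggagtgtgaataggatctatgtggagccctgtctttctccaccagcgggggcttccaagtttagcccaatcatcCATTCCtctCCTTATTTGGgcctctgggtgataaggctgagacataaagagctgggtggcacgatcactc
Mybphl (chr3:108364661-108364910, plus strand): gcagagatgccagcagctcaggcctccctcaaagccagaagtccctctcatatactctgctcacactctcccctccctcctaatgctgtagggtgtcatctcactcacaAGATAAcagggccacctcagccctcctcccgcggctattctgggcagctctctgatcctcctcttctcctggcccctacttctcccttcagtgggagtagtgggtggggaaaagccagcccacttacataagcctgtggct
In the Nppa window the matches are a TATAAA ending 4 bases before the start, a TNAAGTG and an AGGTGT. Myl7 held a CArG box between 61 and 52 bases before its start and a CATTCC next to it, and Mybphl held 1 AGATAA. The RefSeq window of Nppb (chr4:147985650-147985899) ends inside the annotated span of the gene, so its sequence is not shown and its matches are not placed against the start.

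RefSeq promoter windows were found for 9 of the 10 members, 10 windows in all, among 32851 windows of the same length. The CArG box was present in 1.47% of all windows and in those of Myl7 and Actc1. TATAAA was present in 12.4% of all windows and in those of Nppa and Nppb. AGATAA was present in 9.99% of windows and in those of Nppb, Tnnt2 and Mybphl, CATTCC in 12.6% and in those of Nppb, Myl7, Myh6 and Tnnt2, AGGTGT in 11.8% and in those of Nppa and Tnni3, and TNAAGTG in 10.1% and in that of Nppa alone among members. The MEF2 box was present in 0.508% of windows and in 0 of the members' windows. A match is a run of letters and not a tested binding site. Like that of Nppb, the windows of Tnnt2, Tnni3 and Myh6 lie partly or wholly inside the annotated span of the gene.

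The measurements rest on probes of 60 bases. The 5 probes that lie in coding sequence are shown, because each value below is the brightness of such a probe, written 5′ to 3′ with positions from the file headers (mm9). The Myl7 and Tnnt2 probes are interrupted in the genome, where they span 250 and 313 bases, so their full match is to spliced RNA.
Myl7 (chr11:5798186-5798435, minus strand): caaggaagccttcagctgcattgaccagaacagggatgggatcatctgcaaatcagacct
Tnnt2 (chr1:137747976-137748288, plus strand): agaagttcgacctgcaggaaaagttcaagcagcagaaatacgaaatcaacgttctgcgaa
Tnni3 (chr7:4472043-4472102, minus strand): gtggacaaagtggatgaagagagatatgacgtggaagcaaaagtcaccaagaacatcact
Mybphl (chr3:108178294-108178353, plus strand): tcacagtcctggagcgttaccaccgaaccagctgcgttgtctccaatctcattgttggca
Myh6, second probe near the 5′ end (chr14:55584132-55584191, minus strand): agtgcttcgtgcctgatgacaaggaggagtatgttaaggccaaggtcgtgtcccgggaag
Myh6 had 2 probes, and the brighter one, nearer the 3′ end (chr14:55560774-55560833, mm9), stands for the gene. The probes disagreed: over 29 arrays their levels correlated with Pearson r = 0.35 and Spearman rho = 0.27, given as a description. Nppa was printed as 10 spots per array, whose SD had a median of 0.05 and a maximum of 0.24 on the log2 scale.

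Signal quality varied among the 29 arrays. Spike-in slopes were 0.937 to 1.06, and between 51.2% and 82.4% of spots lay above background, with 5 arrays above 70%. The arrays sat on 4 slides, and slide and treatment cannot be told apart at 18 h, where the oleic acid mice were all on slide 4 and the saline mice on slide 3. All values below are log2 processed signal minus the 75th percentile of the array, so 0 is the brightness below which 75% of the non-control spots of that array lie. Levels are compared only within a probe, since brightness also depends on the probe. Replicates are separate mice, and the number of arrays limits the precision.

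Lung markers were bright, with the mean level of 6 of 6 listed lung genes, among them surfactant protein genes, between 6.53 and 7.09 on oleic acid arrays and between 6.56 and 7.22 on saline arrays. Every member but Nppb was well above background on 29 of 29 arrays, and Nppb on 22. No member was saturated on any of them. Transcripts of heart muscle were thus measured in the lung RNA of each mouse used.

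Nppa, the atrial natriuretic peptide gene, measured 3.49, 3.09 and 3.41 with oleic acid, against 3.31, 3.58 and 3.59 with saline at 1 h. At 1.5 h it was 3.11 and 3.78 with oleic acid, against 3.81 and 7.36 with saline. At 3 h its values were 3.33 and 3.23 with oleic acid, against 2.82 and 3.62 with saline. The saline mouse with 7.36, replicate 2 at 1.5 h, had the highest Nppa level in the series, while the groups overlapped at 1 and at 3 h. Nppa then measured 3.77, 3.93 and 2.32 with oleic acid, against 3.01 and 2.57 with saline at 4 h. The 18 h mice gave 1.93, 3.51 and 3.49 with oleic acid, against 3.56 and 3.26 with saline. At 24 h the values were 3.63, 6.36 and 3.45 with oleic acid, against 3.35 and 3.53 with saline. Oleic acid 24 h replicate 2, at 6.36, was the second highest, and the other 27 arrays lay between 1.93 and 3.93.

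Nppb, the gene of brain natriuretic peptide, was dim. It measured -3.99, -2.61 and -3.53 with oleic acid, against -3.37, -3.87 and -3.40 with saline at 1 h and -3.94 and -3.97 with oleic acid, against -4.08 and 1.25 with saline at 1.5 h. Its 3 h values were -3.75 and -3.53 with oleic acid, against -3.73 and -3.76 with saline. Saline 1.5 h replicate 2 was again the highest of all, at 1.25, above 0 where every other array was below it. Nppb at 4 h measured -4.21, -2.90 and -4.87 with oleic acid, against -4.75 and -4.16 with saline. At 18 h it was -5.002, -3.33 and -4.21 with oleic acid, against -3.40 with saline, where saline replicate 2 has no value because its spot was flagged as an outlier and was dropped from the fit. The 24 h mice gave -4.11, -0.17 and -4.78 with oleic acid, against -3.94 and -4.15 with saline. The second highest value, -0.17, belonged to oleic acid 24 h replicate 2, and the other arrays with a value lay between -5.002 and -2.61. Nppb was not well above background in 1 oleic acid mouse and both saline mice at 4 h, in 1 oleic acid mouse at 18 h, and in 1 oleic acid mouse and both saline mice at 24 h.

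Both saline mice were not well above background at 4 and at 24 h, and neither was 1 of the 3 oleic acid mice, so no fold is given for Nppb there. At 4 h the means were -3.99 in oleic acid mice and -4.45 in saline mice (adjusted p = 0.954, limma), and with the normexp background the difference was -0.10. At 24 h they were -3.02 in oleic acid mice and -4.04 in saline mice (adjusted p = 0.871, limma), and without oleic acid replicate 2 the difference was -0.40. At both times replicate 2 was the only oleic acid mouse above both saline mice.

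Myh6 encodes the fast alpha myosin heavy chain, the motor of the atrium and of the adult mouse ventricle. Its level was 6.33, 6.69 and 6.34 with oleic acid, against 6.26, 5.93 and 6.54 with saline at 1 h, and 6.07 and 6.43 with oleic acid, against 6.56 and 7.42 with saline at 1.5 h. It was 6.43 and 6.48 with oleic acid, against 6.31 and 6.27 with saline at 3 h, and 6.42, 6.34 and 6.31 with oleic acid, against 6.50 and 5.97 with saline at 4 h. The arrays of the treatments did not overlap at 1.5 h, where oleic acid was lower, nor at 3 h, where it was higher. The 18 h mice gave 5.93, 5.98 and 5.87 with oleic acid, against 6.20 and 6.19 with saline. At 24 h Myh6 measured 5.81, 6.89 and 5.98 with oleic acid, against 6.38 and 6.44 with saline. At 18 h the 3 oleic acid mice all lay below both saline mice, and at 24 h oleic acid replicate 2 was highest and the other oleic acid mice lowest.

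Myl7 is the atrial regulatory light chain of myosin. It measured 3.40, 3.64 and 3.31 with oleic acid, against 2.77, 2.75 and 3.55 with saline at 1 h, and 3.20 and 3.55 with oleic acid, against 3.59 and 4.42 with saline at 1.5 h. Its levels were 3.51 and 2.60 with oleic acid, against 3.39 and 2.91 with saline at 3 h, and 3.31, 2.80 and 3.12 with oleic acid, against 3.32 and 2.68 with saline at 4 h. The groups overlapped at 1, 3 and 4 h and not at 1.5 h. Myl7 was 2.72, 2.87 and 2.86 with oleic acid, against 2.99 and 3.40 with saline at 18 h, and 2.88, 3.86 and 3.19 with oleic acid, against 2.96 and 3.67 with saline at 24 h. Oleic acid was below saline without overlap at 18 h, and overlapped it at 24 h.

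Myl4, the atrial essential light chain, had levels of 5.81, 5.31 and 5.85 with oleic acid, against 5.64, 5.46 and 5.88 with saline at 1 h, and of 5.51 and 5.99 with oleic acid, against 5.98 and 6.67 with saline at 1.5 h. It had 5.70 and 5.63 with oleic acid, against 5.80 and 5.72 with saline at 3 h, and 5.89, 5.69 and 5.58 with oleic acid, against 5.89 and 5.47 with saline at 4 h. Oleic acid lay below saline without overlap at 3 h, and overlapped it at 1, 1.5 and 4 h. Myl4 had 5.14, 5.36 and 5.24 with oleic acid, against 5.42 and 5.71 with saline at 18 h, and 5.28, 6.39 and 5.50 with oleic acid, against 5.70 and 5.99 with saline at 24 h. Its 18 h groups were separate, with oleic acid lower, and its 24 h groups overlapped.

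Actc1, the actin of the cardiac thin filament, gave 5.09, 4.61 and 5.24 with oleic acid, against 4.67, 4.62 and 4.88 with saline at 1 h, and 5.03 and 5.57 with oleic acid, against 5.45 and 5.92 with saline at 1.5 h. Later it gave 5.47 and 5.19 with oleic acid, against 5.21 and 5.22 with saline at 3 h, and 4.99, 5.13 and 5.04 with oleic acid, against 5.23 and 4.93 with saline at 4 h. No early time separated its groups. At 18 h Actc1 gave 4.51, 4.81 and 5.22 with oleic acid, against 5.02 and 5.24 with saline, and at 24 h 4.86, 5.17 and 5.06 with oleic acid, against 4.75 and 5.18 with saline. Those groups overlapped too, and oleic acid 24 h replicate 2 was the highest oleic acid mouse of its time by only a small margin.

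Tnnt2 and Tnni3 encode the cardiac forms of troponin T, which ties the troponin complex to tropomyosin, and troponin I, its inhibitory subunit. Tnnt2 measured 3.83, 3.65 and 3.79 with oleic acid, against 3.44, 3.46 and 3.78 with saline at 1 h, and 3.56 and 3.88 with oleic acid, against 4.05 and 4.82 with saline at 1.5 h. It then measured 3.42 and 3.20 with oleic acid, against 3.93 and 3.78 with saline at 3 h, and 4.03, 3.84 and 3.68 with oleic acid, against 3.75 and 3.46 with saline at 4 h. Oleic acid was below saline without overlap at 1.5 and 3 h. Tnnt2 later measured 3.79, 3.70 and 3.70 with oleic acid, against 3.78 and 3.92 with saline at 18 h, and 3.52, 4.18 and 3.58 with oleic acid, against 3.91 and 4.16 with saline at 24 h. Neither late time separated the groups.

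Tnni3 levels were 2.41, 2.66 and 2.47 with oleic acid, against 2.13, 1.82 and 2.52 with saline at 1 h, and 2.12 and 2.46 with oleic acid, against 2.74 and 3.57 with saline at 1.5 h. They were 2.71 and 2.26 with oleic acid, against 2.54 and 2.31 with saline at 3 h, and 2.54, 2.34 and 2.23 with oleic acid, against 2.57 and 2.12 with saline at 4 h. Only at 1.5 h, among the 6 times, did the arrays not overlap, with oleic acid lower. Tnni3 levels at 18 h were 2.39, 2.30 and 2.26 with oleic acid, against 2.39 and 2.62 with saline, and at 24 h 2.36, 2.89 and 2.32 with oleic acid, against 2.41 and 2.56 with saline. The highest oleic acid value at any time was the 2.89 of oleic acid 24 h replicate 2.

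Sln encodes sarcolipin, a small membrane protein that inhibits the calcium pump of the sarcoplasmic reticulum and is abundant in the mouse atrium. It had levels of 3.31, 3.33 and 3.45 with oleic acid, against 3.08, 2.98 and 3.53 with saline at 1 h, and of 2.97 and 3.51 with oleic acid, against 3.26 and 4.52 with saline at 1.5 h. The following times had 3.46 and 3.01 with oleic acid, against 3.43 and 3.27 with saline at 3 h, and 3.83, 3.55 and 3.24 with oleic acid, against 3.34 and 3.05 with saline at 4 h. Groups overlapped at these 4 times. Sln had 3.07, 3.02 and 2.79 with oleic acid, against 3.19 and 3.48 with saline at 18 h, and 3.22, 3.95 and 3.21 with oleic acid, against 3.30 and 3.66 with saline at 24 h. The 18 h oleic acid mice were all below the saline mice.

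Mybphl, a myosin binding protein of the atrium related to myosin binding protein C, measured 0.52, 0.96 and 0.41 with oleic acid, against -0.33, -0.46 and 0.91 with saline at 1 h, and 0.45 and 0.66 with oleic acid, against 0.76 and 1.70 with saline at 1.5 h. It measured 0.48 and -0.52 with oleic acid, against 0.38 and -0.08 with saline at 3 h, and 0.51, -0.08 and 0.12 with oleic acid, against 0.50 and -0.70 with saline at 4 h. The groups were separate at 1.5 h, with oleic acid lower. Mybphl was -0.24, 0.10 and 0.06 with oleic acid, against -0.13 and 0.48 with saline at 18 h, and 0.01, 0.64 and 0.24 with oleic acid, against -0.21 and 0.56 with saline at 24 h. Both late times overlapped.

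**Figure D1:**
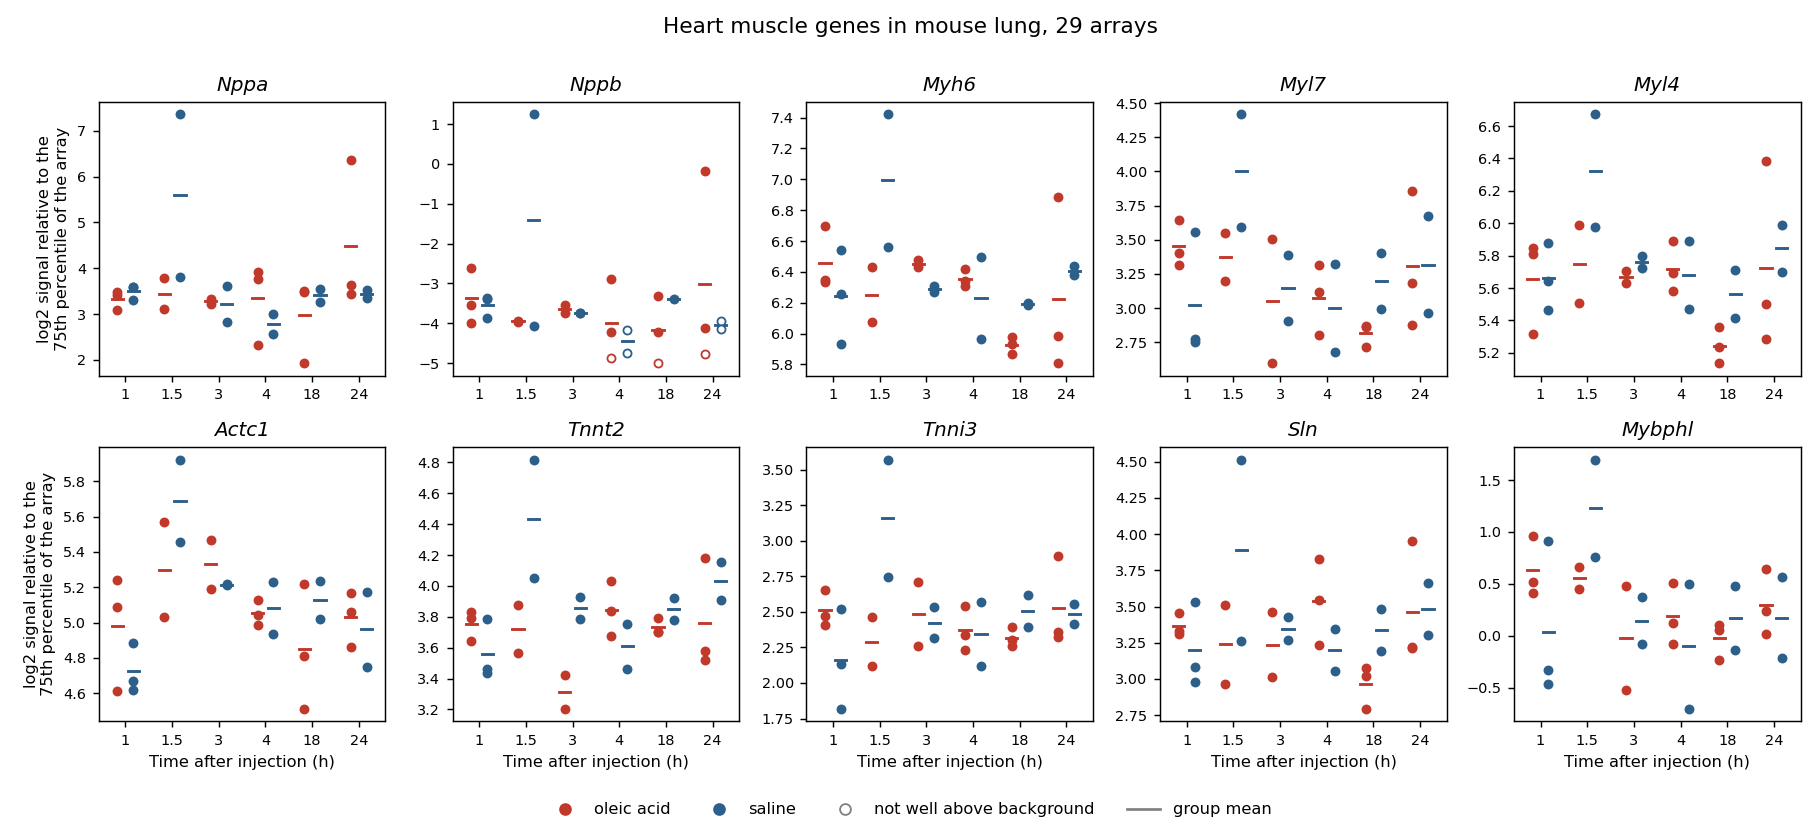
Log2 level, with the 75th percentile of each array at 0 (y axis, a separate scale for each gene) against time after injection in hours (x axis, times evenly spaced) for the 10 genes on 29 arrays, with oleic acid mice left of saline mice, 1 point per array, open points not well above background and a bar at each group mean. Saline 1.5 h replicate 2 stands highest in every panel, and oleic acid 24 h replicate 2 stands far above the other mice of its group for Nppa and Nppb, at 6.36 and -0.17.

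In order of group mean, saline at 1.5 h was highest for all 10 members. Of the 11 gaps between neighbouring group means, only 1 or 2 per gene exceeded the pooled SD within groups. For Nppa the next groups were oleic acid 24 h, at 4.48 ± 1.63 (SD, n = 3), and saline 1 h, at 3.49 ± 0.16 (SD, n = 3). Saline 1.5 h averaged 5.59 ± 2.51 (SD, n = 2), so its place rests on 1 of its 2 mice. Saline 4 h was lowest for Nppa, Nppb and Mybphl, and oleic acid 18 h was lowest for Myh6, Myl7, Myl4 and Sln.

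Both natriuretic peptide genes had a wide spread between mice of one group. The SD within groups was 0.96 for Nppa and 1.40 for Nppb on the log2 scale, at percentiles 90.2 and 96.1 of all features, whose median was 0.34. Among the muscle genes the SD was lowest for Tnnt2, at 0.23 (percentile 25.5), 0.30 for Myh6 (percentile 42.3), and highest for Myl7, at 0.39 (percentile 58.4), and Mybphl, at 0.49 (percentile 68.6). Without the high array of saline 1.5 h and that of oleic acid 24 h, on 27 arrays chosen after seeing the data, the SD was 0.52 for Nppa (percentile 71.1) and 0.60 for Nppb (percentile 76.4). The muscle genes then lay between percentile 5.58, for Tnnt2, and 67.6, for Mybphl.

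Oleic acid 24 h replicate 2 was above the mean of the other 2 mice of its group for all 10 members. It was higher by 2.83 on the log2 scale for Nppa, a 7.09-fold difference, and by 4.27 for Nppb, with no fold because 1 of the other 2 mice was not well above background. Muscle genes were higher by less, 0.99 for Myh6, 0.99 for Myl4, 0.82 for Myl7, 0.74 for Sln, 0.63 for Tnnt2, 0.55 for Tnni3, 0.52 for Mybphl and 0.21 for Actc1. The median of all features was 0.09 higher on that array. The lung, on slide 4, had 54.2% of its spots above background, inside the range of most arrays.

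Saline 1.5 h replicate 2 was above the other saline mouse of its group for all 10 members too. Nppa was higher by 3.55, an 11.7-fold difference, and Nppb by 5.33. No fold is given for Nppb, because the other saline mouse was at -4.08, near background. Saline mice at 24 h, with Nppb at -3.94 and -4.15, were not well above background. Sln was higher by 1.26, Mybphl by 0.94, Myh6 by 0.86, Myl7 by 0.83, Tnni3 by 0.83, Tnnt2 by 0.77, Myl4 by 0.70 and Actc1 by 0.47, against a median of 0.10 over all features. The array of saline 1.5 h replicate 2 was on slide 2 and its companion on slide 1. On it 72.2% of spots were above background, 1 of the 5 arrays above 70%. Each comparison sets 1 mouse against 1 or 2 others and has no test, and the part of slide, array quality or dissection in it was not tested.

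**Figure D2:**
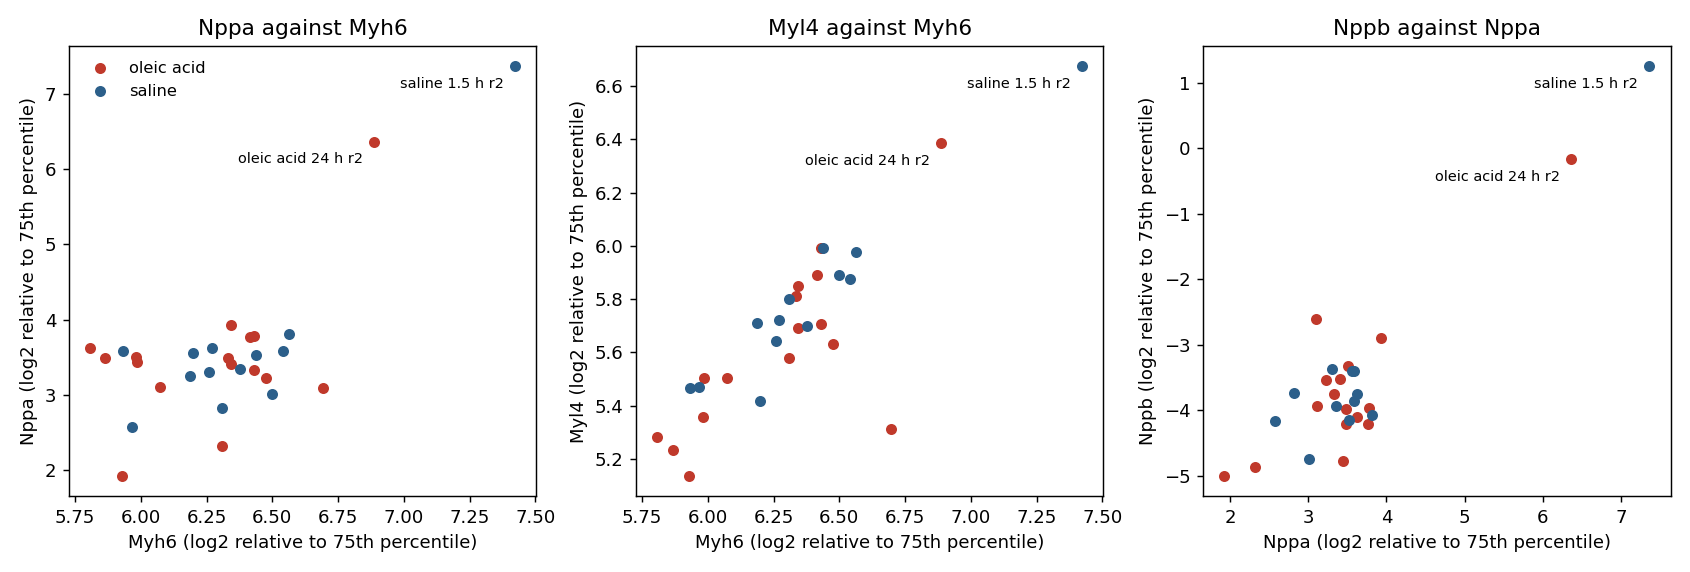
Levels of Nppa against Myh6, Myl4 against Myh6 and Nppb against Nppa, 1 point per array, all axes in log2 with the 75th percentile of each array at 0, with oleic acid and saline arrays in different colours. Saline 1.5 h replicate 2 and oleic acid 24 h replicate 2 are apart from the rest in both natriuretic panels, and Myl4 follows Myh6 along a line that also holds the other arrays.

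Oleic acid was compared with saline over the 4 early times together, weighting times equally, in limma with the 12 group means and Benjamini-Hochberg adjustment over all features. A feature was called at an adjusted p below 0.05. Over 1 to 4 h, 0 of 10 members were called, against 0.0034% of all features (1 of 29440). The differences had a median of -0.08 on the log2 scale, 9 below 0 and 1 above it, against a median of -0.03 over all features. Without saline 1.5 h replicate 2 the median was 0.047, with 3 below 0 and 7 above it. They ran between -0.45 (95% interval -1.75 to 0.85) for Nppb and 0.01 (-0.45 to 0.47) for Mybphl, with adjusted p between 0.661 and 0.995. Tnnt2 had the smallest p, with means of 3.66 in oleic acid mice and 3.87 in saline mice and a difference of -0.21 (-0.44 to 0.02, adjusted p = 0.661, limma). Nppa had means of 3.35 in oleic acid mice and 3.77 in saline mice, a difference of -0.42 (-1.32 to 0.47). Without that saline mouse the Nppa difference was 0.02 and that of Nppb 0.22.

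Over 18 and 24 h, again 0 of 10 members were called, against 0.017% of features (5 of 29439). The median difference was -0.15, against -0.07 over all features, with 2 members above 0 and 8 below, but 10 above 0 and a median of 0.08 when arrays were centred on their median spot, which moved the median of all features to 0.17. Nppa had the highest, 0.30 (-0.93 to 1.54), with means of 3.73 in oleic acid mice and 3.42 in saline mice. Without oleic acid 24 h replicate 2 the median was -0.31, with 10 members below 0, the Nppa difference was -0.17 and that of Nppb was -0.59, against 0.12 (-1.92 to 2.17) with it. Myh6 averaged 6.08 in oleic acid mice and 6.30 in saline mice, a difference of -0.22 (-0.63 to 0.18), and Myl4 averaged 5.48 in oleic acid mice and 5.70 in saline mice, also -0.22 (-0.63 to 0.19). Adjusted p over the members lay between 0.944 and 0.985.

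**Figure D3:**
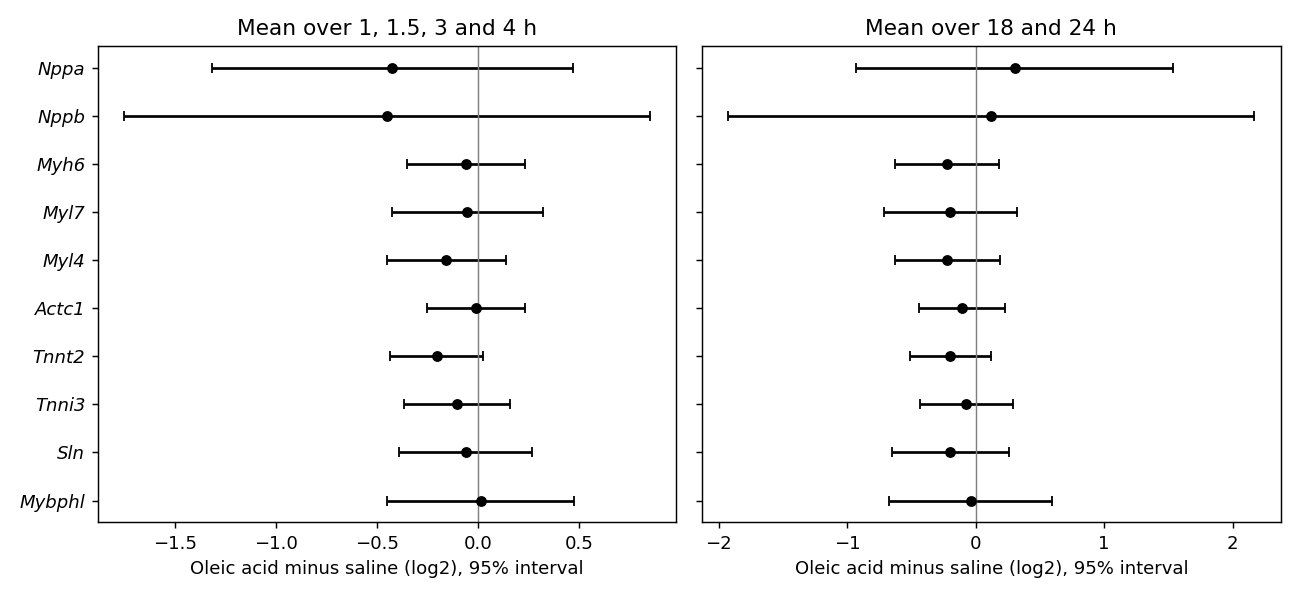
Oleic acid minus saline (x axis, log2, with moderated 95% intervals) for the 10 genes, as the mean over 1, 1.5, 3 and 4 h (left) and over 18 and 24 h (right). Every interval includes 0, and those of Nppa and Nppb are the widest.

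The late effect minus the early one had a median of -0.06 over the members and was highest for Nppa, at 0.73 (-0.80 to 2.25). It was called for 0 of 10 members and for 0% of features, 0 of 29439, although 432 features had an unadjusted p below 0.05 in limma. Saline mice of 18 and 24 h were also set against those of 1 to 4 h, where 2.77% of features were called (815 of 29439). Of the members 0 were called, with a median difference of -0.14 (0.07 without saline 1.5 h replicate 2), the lowest -0.43 (-2.38 to 1.51) for Nppb and the highest 0.08 (-0.22 to 0.37) for Tnnt2. With median centring the members' median was -0.41, against -0.25 over all features. The intervals of Myh6 (-0.52 to 0.24) and Actc1 (-0.45 to 0.18) lay within 1 of 0 on the log2 scale. Slide changed along with time in saline mice, from slide 1 at 1 h to slide 4 at 24 h. Only slide 3 held both early and late saline mice, those of 4 and 18 h. Time and slide are thus not separated in this comparison, for the members or for the features called.

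At single times 0 members were called as well, against 0% of features at 1 h, 0.0034% at 1.5 h, 0% at 3 h, 0.0034% at 4 h, 0.0238% at 18 h and 0.0136% at 24 h. Unadjusted p lay below 0.05 for 1189 features at 1 h and for 1869 at 3 h. At 1 h 8 of 10 members were higher with oleic acid, the smallest p being those of Tnni3, with means of 2.51 in oleic acid mice and 2.16 in saline mice (0.35, -0.11 to 0.82), and Mybphl, with 0.63 in oleic acid mice and 0.04 in saline mice (0.59, -0.21 to 1.40). At 3 h Tnnt2 differed most, with means of 3.31 in oleic acid mice and 3.86 in saline mice (-0.54, -1.04 to -0.05, adjusted p = 0.75, limma), and Myh6 differed by 0.16 (-0.46 to 0.79). At 4 h Sln differed by 0.34 (-0.30 to 0.98) and Tnnt2 by 0.24 (-0.21 to 0.69). The F test over the 5 differences of the effect between times called 0 members, against 0.00679% of features, and Tnnt2 had the smallest unadjusted p there, 0.034 (adjusted p = 1.00, limma).

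At 1.5 h all 10 members were lower with oleic acid, by a median of 0.69 on the log2 scale, and 4 had an unadjusted p below 0.05, against 1.62% of features (478). Tnni3 averaged 2.29 in oleic acid mice and 3.16 in saline mice (-0.87, -1.43 to -0.30, adjusted p = 1.00, limma). Tnnt2 averaged 3.72 in oleic acid mice and 4.43 in saline mice (-0.71, -1.21 to -0.22), and the other genes with such a p were Nppa and Myh6. The arrays did not overlap for 6 of 10 members, Nppa, Myh6, Myl7, Tnnt2, Tnni3 and Mybphl, against 15.1% of features with oleic acid below saline. The muscle genes among them moved together from mouse to mouse, so the genes counted are not independent observations. Saline 1.5 h replicate 2 is 1 of the 2 saline mice here, and without it and oleic acid 24 h replicate 2 the median difference at 1.5 h was -0.22, with 9 of 10 members lower. The saline mouse that was not high also lay above both oleic acid mice for each of the 6 genes without overlap, by less than it lay below replicate 2.

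At 3 h oleic acid lay above saline without overlap for Myh6, against 17.4% of features (its difference was -0.0086 with median centring, -0.15 as the mean of both probes and -0.81 with all 31 arrays), and below it for Tnnt2 and Myl4, against 17.9%. At 18 h all 10 members were lower with oleic acid, with a median difference of -0.30, but with median centring only 5 of 10 were lower, and the others, Myh6, Actc1, Tnnt2, Tnni3 and Mybphl, were above 0. The arrays at 18 h did not overlap for Sln, Myl4, Myh6 and Myl7, 4 of 10 members, against 6.68% of features. These genes moved together from mouse to mouse, so they are not independent observations. Slide and treatment cannot be told apart at 18 h. The smallest p at 18 h were those of Actc1, with means of 4.85 in oleic acid mice and 5.13 in saline mice (-0.28, -0.76 to 0.20), and Sln, with 2.96 in oleic acid mice and 3.34 in saline mice (-0.37, -1.01 to 0.27), both with an adjusted p of 1.00 in limma. At 24 h 5 members were above 0 and 5 below, but 9 were below without oleic acid replicate 2 (median -0.27), 2 with median centring and 1 with quantile normalization. Nppa at 24 h averaged 4.48 in oleic acid mice and 3.44 in saline mice (1.04, -0.71 to 2.78, adjusted p = 0.86, limma), and the difference was 0.10 without oleic acid replicate 2. Tnnt2 averaged 3.76 in oleic acid mice and 4.03 in saline mice at 24 h (-0.27, -0.72 to 0.18).

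Where a slide held both treatments of a time, the differences were also taken within it, with no test. On slide 1 at 1 h the members' median was 0.20, with 8 of 10 above 0. On slide 2 the median was -1.16 at 1.5 h, over 2 oleic acid mice and the 1 high saline mouse, and 0.13 at 3 h, over 1 oleic acid mouse and 2 saline mice. It was 0.18 on slide 3 at 4 h and 0.02 on slide 4 at 24 h.

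The 8 muscle genes moved together from mouse to mouse. Over 29 arrays the 28 pairs among them had Pearson r between 0.52 and 0.95, with a median of 0.74, and a median Spearman rho of 0.68. By two-sided permutation tests adjusted over 45 pairs, 28 of 28 passed with r (largest adjusted p = 0.00894) and 27 with rho. The smallest p that the permutations can give is 1e-05. Myl7 and Mybphl were the closest pair, at r = 0.95 and rho = 0.95. Actc1 was the least close member, with a median r of 0.56 against the other muscle genes.

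The shared movement did not rest on the group means. Correlations of the deviations from group means had a median of 0.76 (0.36 to 0.96 over the 28 pairs). Without the 2 arrays farthest from the median of the first gene, the median r was 0.59 (0.29 to 0.94), and on 27 arrays, without saline 1.5 h replicate 2 and oleic acid 24 h replicate 2, it was 0.57 (0.25 to 0.94). Within slides the median r was 0.74, 0.91, 0.62 and 0.81 on slides 1, 2, 3 and 4, with 7, 6, 8 and 8 arrays. The lowest of any pair within a slide was -0.04, on slide 3.

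Apart from 2 arrays, the natriuretic peptide genes had lower correlations with the muscle genes than muscle genes had with each other, although the difference itself was not tested. On these 2, saline 1.5 h replicate 2 and oleic acid 24 h replicate 2, all 10 members were above the other mice of their group. Since these 2 arrays lie apart from the others for Nppa and Nppb, correlations with these genes are given only over the other 27 arrays, or 26 with Nppb. The 16 pairs of a natriuretic and a muscle gene had a median r of 0.16 (-0.12 to 0.40), against 0.57 for the 28 muscle pairs on 27 arrays, and 0 of 16 passed the permutation test. Of all 17 pairs with Nppa or Nppb, 1 passed, but 9 passed with median centring. With the 2 arrays of bad spike-in slope added, and the 2 high arrays still left out, 13 passed. Within slides 1, 3 and 4 the median r of the 16 natriuretic and muscle pairs was 0.13, 0.07 and 0.14. Slide 2 held too few of these arrays. The highest were Nppa with Myl4, at r = 0.40, and Nppb with Myh6, at r = 0.35. Nppa and Nppb with each other had r = 0.45 (permutation p = 0.02, adjusted p = 0.031) and rho = 0.21. Within slides 1, 3 and 4 r was -0.86, 0.73 and 0.63, with 7 arrays each. Without the 2 arrays farthest from the Nppa median, r fell to 0.09, so the relation rests on those arrays.

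**Figure D4:**
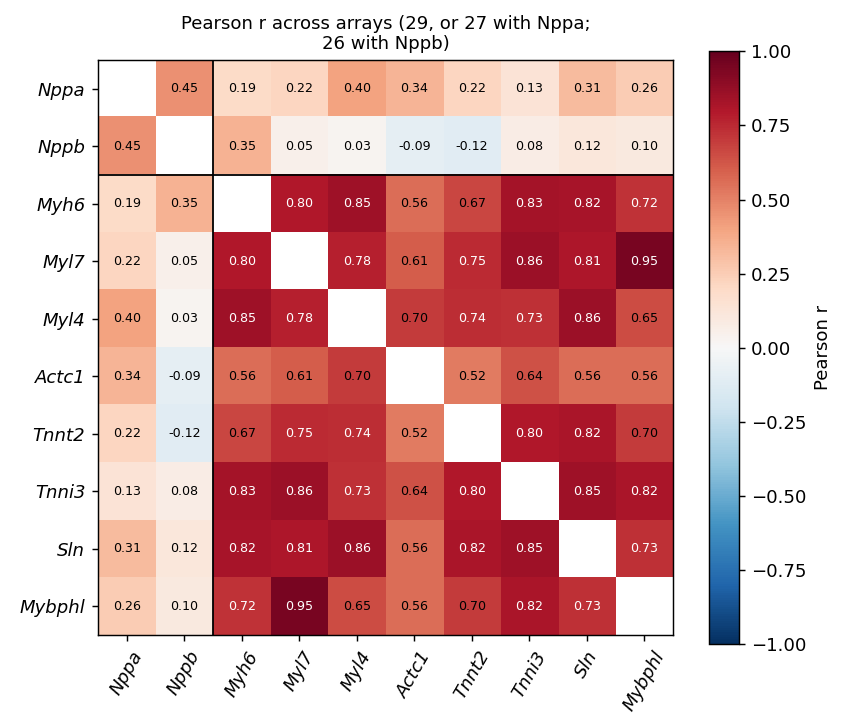
Pearson r between the 10 genes across arrays, 29 arrays for pairs of muscle genes, 27 for pairs with Nppa and 26 for pairs with Nppb, with lines between natriuretic and muscle genes. Values among the 8 muscle genes lie between 0.52 and 0.95, or between 0.25 and 0.94 on 27 arrays. Those between natriuretic and muscle genes lie between -0.12 and 0.40.

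The features most like the 10 genes were taken as the 10 named genes with the highest Pearson r, over 29 arrays, with the mean of the members' standardised levels. They were Mb, the oxygen-binding myoglobin (0.95), Tpm1, a tropomyosin (0.92), Actn2, the Z-disc actinin (0.91), Fndc5, the precursor of irisin (0.88), and Srl, the calcium-binding sarcalumenin (0.88). Next came Cmya5, a cardiomyopathy-associated muscle protein (0.86), Ckmt2, the mitochondrial creatine kinase of striated muscle (0.85), Csrp3, the muscle LIM protein (0.83), Ckm, the cytosolic muscle creatine kinase (0.83), and Myl1, a light chain of fast skeletal myosin (0.83). On 27 arrays the same genes had r between 0.60 for Cmya5 and 0.85 for Mb. Over all features the 95th percentile of r on 29 arrays was 0.32.

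Other genes of heart muscle were counted by list, with that r and the number above 0.32. Of the sarcomere list, 19 of 19 genes were measured and 16 were above it, with a median r of 0.71. Of 19, 14 had their highest level of all arrays on saline 1.5 h replicate 2, and the share of all features that did so was not counted. The members' mean standardised level was itself highest on that array, at 3.26, followed by 1.62 on oleic acid 24 h replicate 2. The list of calcium handling, excitation and energy genes had 18 of 20 measured, a median of 0.61 and 14 above. Among the cardiac regulators, 5 of 9 were measured, with a median of 0.44 and 4 above, including the transcription factor gene Nkx2-5 at 0.56. Between oleic acid and saline, 0 genes of these lists were called in the early or the late mean, with medians of -0.04 and -0.17 for the sarcomere list. On 27 arrays the median r was 0.50 for the sarcomere list, 0.47 for the calcium list and 0.28 for the regulators.

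Genes enriched in the ventricle had lower values in this measure, with a median r of 0.20 over 5 genes of 5 (0.10 on 27 arrays) and 1 above 0.32. Myl2, the ventricular regulatory light chain, had r = 0.20 and was above background on 25 of 29 arrays. The mean level of this list had a median of -1.14 on saline arrays and -1.27 on oleic acid arrays. It was highest on saline 1 h replicate 1 and oleic acid 1 h replicate 2, where 81.7% and 76.1% of spots were above background. The part of background and array quality in its low r was not tested. Of the genes that process or receive natriuretic peptides, 6 of 7 were measured, and the highest r was 0.74 for Corin, the protease that cleaves the Nppa product. Its level was -1.47 on saline 1.5 h replicate 2, its highest, and -3.01 on the other saline mouse of that time. Furin, Npr2 and Npr3 were at -0.21, 0.12 and 0.43, where Npr3 encodes the clearance receptor.

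Markers of other tissues that a lung sample can hold were read in the same way. Of 18 skeletal muscle genes, 14 were measured, with a median r of 0.16 (0.32 on 27 arrays) and 4 above 0.32, among them Ckm and Myl1. The genes of fast limb muscle Myh1, Myh2, Myh4 and Mylpf were not above background in any whole group and were not tested. The skeletal list's mean level lay between -2.44 and -0.93 on oleic acid arrays and between -2.36 and -1.15 on saline arrays. It too was highest on oleic acid 1 h replicate 2 and, among saline arrays, on saline 1 h replicate 1. Smooth muscle genes had a median r of 0.11 (0.29 on 27 arrays) over 8 of 9 measured genes, with 1 above. Lung genes had a median of 0.04 (-0.0050 on 27 arrays) with 0 of 6 above, and thymus genes 0.17 (0.35 on 27 arrays) with 0 of 2 above.

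Fat genes had a median r of 0.31 over 7 of 7 genes and 2 above 0.32, a median above those of the skeletal, smooth muscle, lung and thymus lists. That order changed on 27 arrays. There the fat list had 0.26 and the cardiac regulators 0.28, both below the skeletal (0.32), smooth muscle (0.29) and thymus (0.35) lists. Their mean level lay between -0.72 and 3.20 on oleic acid arrays and between -0.34 and 2.60 on saline arrays, the highest saline value being that of saline 1.5 h replicate 2. In the mean over 1 to 4 h, 7 of 7 were higher with oleic acid and 0 were called, with a median difference of 0.44. Over 18 and 24 h, 1 of 7 was higher, with a median of -0.06. Adiponectin (Adipoq) differed by 0.84 in the mean over 1 to 4 h (adjusted p = 0.66, limma). The part of fat in the samples in the members' levels was not tested.

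**Figure D5:**
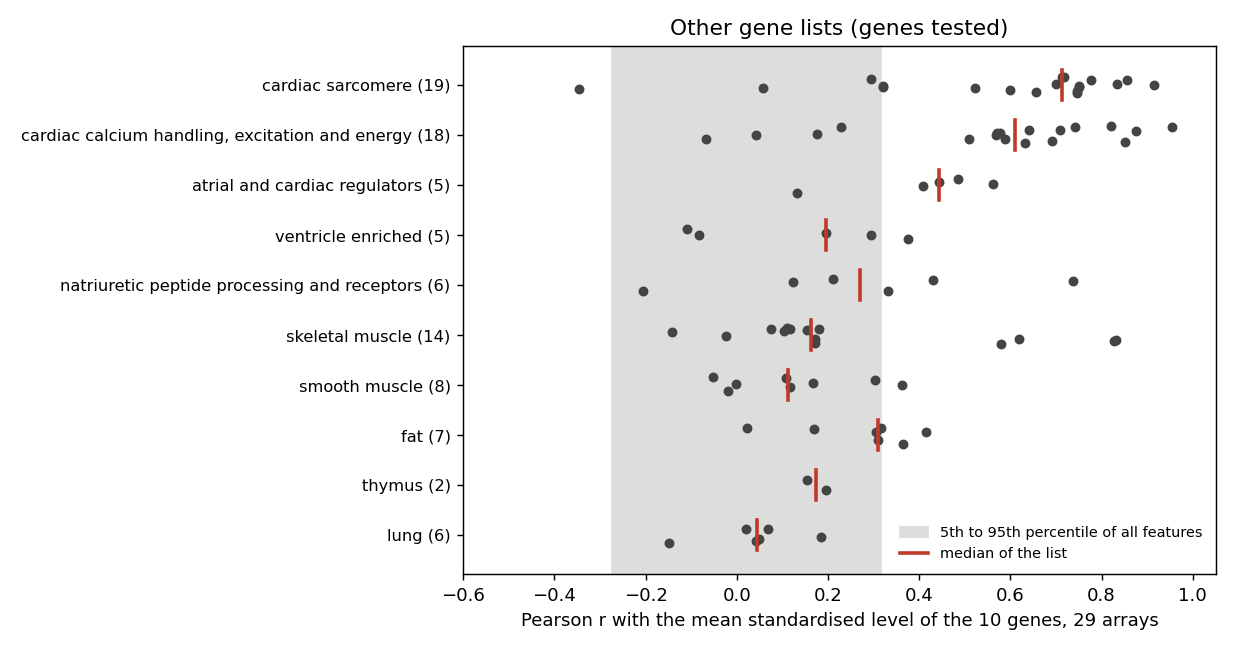
Pearson r of each measured gene of the other lists with the mean standardised level of the 10 genes over 29 arrays (x axis), by list (y axis, number of genes tested in parentheses), with the list median in red and the range between the 5th and 95th percentiles of all features shaded. The sarcomere and calcium lists have medians of 0.71 and 0.61, outside the shading, and the skeletal, smooth muscle and lung lists have medians inside it.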

How the data were processed

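RNA of 31 lungs, labelled with Cy3, was put on 1 Agilent mouse array each, which the authors read with the Feature Extraction software of Agilent (10.5.1.1), per the submitters' processing notes. Each spot has an intensity, per the file headers, and the processed signal used here was already background-corrected by that software. A processed matrix of the same arrays, deposited by the authors as log2 values, served as an alternative, and its background treatment is not given in the sources used here.

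In R 4.3.3 with data.table (version 1.17.8), values of 59305 non-control spots were log2-transformed and centred on the 75th percentile of their array. Outlier spots were dropped, spots of a probe were averaged (55681 probes), and a probe was tested if some group had it well above background on all its arrays. Of several probes, the brightest stands for the gene. Symbols were updated by RefSeq accession for 26582 probes and by the given name for 2602, and 26497 stayed without a current symbol. Groups, 1 per treatment and time, came from the labels. A model of 12 group means was fitted to 29 arrays with limma 3.58.1 and statmod 1.5.0, giving moderated 95% intervals and Benjamini-Hochberg adjustment over 29440 features within each of 10 comparisons. Correlations used 1e+05 permutations in scipy 1.17.1 (numpy 2.4.6, pandas 2.3.3), and figures matplotlib 3.10.9.

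The 2 arrays left out had spike-in slopes outside 0.8 to 1.2. On simulated data for the mean over 1 to 4 h (29440 features), 79 of 100 changes of 1 and 86 of 100 changes of 2 on the log2 scale were recovered, with 12 false calls. The simulated noise was independent and normal, with an equal change at all early times and no slide effect or outlying array. The rates are averages over features and do not carry over to Nppa and Nppb. Their SE in this comparison was 0.43 and 0.62, against a median of 0.16 over all features. Members and lists were chosen with earlier results of these data known. All members were named. At single times the 2 members with the smallest unadjusted p were described, further values were chosen after they were seen, and up to 4 genes of each other list could be named by p, others (Mb, Tpm1 and the rest of the most alike) by r. Alternatives were other backgrounds, normalizations, filters, probe summaries, sets of arrays, slide and replicate blocks, and leaving out each array; the closing section gives their effect.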

Additional observations from a re-analysis of the deposited data

Results flagged for a closer look

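The arrays left out for their spike-in slope are data outside the comparisons, and some members were higher there than on any saline array. On oleic acid 1.5 h replicate 3, which had a slope of 1.66 and 15585 outlier spots, Myh6 was at 7.43, just above the highest saline array at 7.42. On the same array Actc1 was at 7.82, against 5.92 on the highest saline array, and Sln was at 5.56, against 4.52. Tnnt2 was at 4.85 there, against 4.82. The members Nppa (3.06), Nppb (-8.42), Myl7 (3.00), Myl4 (6.51) and Mybphl (-1.18) were below the highest saline array there, and Tnni3 had no value. On oleic acid 3 h replicate 2, with a slope of 0.751 and 99.6% of spots above background, the Myh6 probe near the 5′ end was at 0.50, against 0.08 on the highest saline array. At the probes that stand for the genes, every member was below the highest saline array there. Myh6 was at 3.53, against 7.42, and Actc1 at 2.51, against 5.92.

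At the brighter Myh6 probe, oleic acid was below saline at 1.5 and 18 h and above it at 3 h, with arrays that did not overlap. Oleic acid minus saline was -0.74 at 1.5 h, 0.16 at 3 h and -0.27 at 18 h on the log2 scale. The test of the difference itself gave 0.90 for 3 h minus 1.5 h (SE 0.42, adjusted p = 1.00, limma) and 0.43 for 3 h minus 18 h (adjusted p = 0.996, limma), so neither passed. The probe near the 5′ end had a lower mean with oleic acid at all 6 times, at 3 h -1.31 in oleic acid mice and -0.84 in saline mice. The 3 h difference was -0.15 as the mean of both probes, -0.0086 with median centring and -0.81 with all 31 arrays. Groups of 2 or 3 arrays allowed no test for single outlying arrays.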

How the results depend on the processing

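Members called stayed at 0 in each of the 10 comparisons under every alternative that could be fitted and without any 1 array; over these alternatives the smallest adjusted p of a described member was 0.351, or 0.200 without 1 array (limma). The members' median difference moved by less than 0.44, the pooled SD within groups of the mean over the members on single arrays. That SD includes Nppa and Nppb (0.96 and 1.40) and is not the spread of the median difference itself, so it is a loose yardstick. The sign changed: the median ranged over -0.23 to 0.05 against -0.08 over 1 to 4 h, -0.31 to 0.08 against -0.15 over 18 and 24 h, and -0.41 to 0.07 against -0.14 in saline mice over time, arrays left out singly included. The replicate block gave medians of -0.06 over 1 to 4 h and -0.15 over 18 and 24 h, and arrays of the same number did not deviate together (median r 0.03 over 136 pairs, 0.00 over 248 pairs of other numbers). A fixed slide block could not be fitted at 18 h or for the late means. Signs of small differences changed. Median centring moved the median of all features over 18 and 24 h to 0.17 and turned the members there to 0.14 for Actc1, 0.20 for Mybphl, 0.017 for Myh6, 0.022 for Myl4, 0.046 for Myl7, 0.046 for Sln, 0.17 for Tnni3 and 0.046 for Tnnt2, Actc1 to 0.026 at 18 h and to 0.012 over 1 to 4 h, and Myh6 to -0.0086 at 3 h. With 24 arrays, without the 5 that had over 70% of spots above background, the early values were 0.087 for Actc1, 0.019 for Myh6, 0.026 for Nppa, 0.14 for Nppb and 0.083 for Sln, and the late ones 0.085 for Mybphl and -0.092 for Nppb. With 27 arrays the early ones were 0.048 for Actc1, 0.047 for Myh6, 0.047 for Myl7, 0.019 for Nppa, 0.22 for Nppb and 0.094 for Sln, and the late ones -0.17 for Nppa and -0.59 for Nppb. Early Actc1 was 0.0051 with normexp, 0.043 with quantile normalization and 0.038 in the deposited table. Early Mybphl was -0.014 with normexp and -0.19 with all 31 arrays. Late Nppb was -0.10 with normexp and -0.61 with outlier spots kept. Myh6 at 3 h was -0.81 with all 31 arrays and -0.15 as the mean of both probes. Without 1 array at a time, the early difference ranged over -0.079 to 0.056 for Actc1, -0.14 to 0.16 for Mybphl, -0.17 to 0.047 for Myh6, -0.17 to 0.058 for Myl7, -0.87 to 0.019 for Nppa, -1.12 to 0.22 for Nppb and -0.22 to 0.094 for Sln, and the late one over -0.23 to 0.16 for Mybphl, -0.17 to 0.56 for Nppa and -0.59 to 0.56 for Nppb. Correlated pairs with Nppa or Nppb, always counted without saline 1.5 h replicate 2 and oleic acid 24 h replicate 2, numbered 1. They numbered 13 when the 2 arrays left out for their spike-in slope were added. They numbered 9 with median centring, 2 in the deposited table and 0 with normexp, while muscle pairs stayed between 23 and 28 of 28. The cause of these changes was not tested. Counts of called features among all moved most: 0 to 36 against 1 over 1 to 4 h, with 1 array left out or another setting, 0 to 278 against 5 over 18 and 24 h, 0 to 162 against 0 for the late minus early effect, 39 to 1040 against 815 in saline mice over time, 0 to 143 against 1 at 1.5 h, 0 to 145 against 0 at 3 h, 0 to 46 against 1 at 4 h, 0 to 350 against 7 at 18 h and 0 to 142 against 4 at 24 h. Nppb lay near background on 7 arrays, which limits its precision.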
